A study of Homo sapiens with 50 samples.

Results

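The deposited lists pair each gene of a set from DLD-1 cells (established from a human colorectal adenocarcinoma) with 1 focused pause site, a single base pair near the gene's start. The distance from the listed start to the site was taken for all 6481 genes, and the members described here were chosen by that distance alone: 2127 genes with a site at 30 to 49 bp, a range that holds the most frequent single distance, 41 bp. They make up 32.8% of all entries. The distance is therefore given as a description and supports nothing else.

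The study followed RNA polymerase II and its elongation factors by ChIP-seq after rapid loss of SPT6, of PAF1, of both, or of SPT6 with NELF-C. Its 50 libraries fall into 32 groups, 18 of 2 libraries and 14 of 1. All lines express OsTIR1, the plant receptor that lets auxin trigger breakdown of a protein carrying an auxin-inducible degron (AID). The lines were SPT6-AID (30 libraries), PAF1-AID (9), SPT6-AID with PAF1-AID (4), SPT6-AID with NELF-C-AID (4) and parental OsTIR1 cells (3). Groups received vehicle for 2 h or 500 µM auxin for 0, 2 or 6 h. The antibodies recognised the RPB1 N-terminal domain (21 libraries), PAF1 (8), SPT6, LEO1, RTF1 and NELF-C (4 each), and WDR61 and CDC73 (2 each), and 1 library was input chromatin. The lists hold coordinates for the series as a whole and no value of a library, so no group could be compared with another, and the depth behind a site is unknown. No source used here gives the method by which the sites were called, or the libraries they came from.

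After initiation, RNA polymerase II commonly halts a short way into the gene, held there by the factors DSIF and NELF, until the kinase P-TEFb releases it into elongation. A focused site is one where polymerases gather at a single position rather than over a broad stretch. Pausing is best known from heat shock genes and from immediate early genes, which are induced within minutes of a stimulus, but it is found at most active genes. The core promoter around the start may hold a TATA box, bound by the TATA-binding protein, or an initiator, and ribosomal protein genes commonly start at a pyrimidine within a run of pyrimidines.

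The sequences below show what the start regions of these genes look like, first whole promoters, then core promoters, then the pause sites themselves. They come from RefSeq (GRCh38.p14, whose main chromosomes have the same coordinates as hg38, the build of the lists) and read 5′ to 3′ along the gene. The listed start is position 0 and the base before it is -1. These 3 promoters run from 250 bases before the start to the start: FOS at chr14:75278578-75278828 (plus strand), HEXIM1 at chr17:45148225-45148475 (plus strand) and ELL at chr19:18522070-18522320 (minus strand). They show an immediate early gene, an inhibitor of P-TEFb and an elongation factor, with sites 43, 45 and 43 bp after the start. Capitals mark the motif letters searched for (given with the motif results) and the start base.
FOS: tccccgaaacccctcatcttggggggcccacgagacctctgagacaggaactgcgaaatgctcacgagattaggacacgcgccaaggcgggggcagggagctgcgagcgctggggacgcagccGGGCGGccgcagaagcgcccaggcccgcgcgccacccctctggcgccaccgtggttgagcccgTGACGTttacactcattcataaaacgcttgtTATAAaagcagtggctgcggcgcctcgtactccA
HEXIM1: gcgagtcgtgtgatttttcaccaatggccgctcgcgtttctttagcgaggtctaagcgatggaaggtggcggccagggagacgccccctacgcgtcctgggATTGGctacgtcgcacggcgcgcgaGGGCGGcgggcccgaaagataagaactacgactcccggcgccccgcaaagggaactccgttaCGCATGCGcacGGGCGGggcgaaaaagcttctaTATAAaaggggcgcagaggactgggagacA
ELL: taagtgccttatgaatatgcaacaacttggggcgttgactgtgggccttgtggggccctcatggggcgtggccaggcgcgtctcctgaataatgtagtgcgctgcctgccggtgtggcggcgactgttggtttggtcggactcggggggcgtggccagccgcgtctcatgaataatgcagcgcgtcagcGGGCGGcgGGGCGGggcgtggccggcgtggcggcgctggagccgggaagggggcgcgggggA

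In FOS, the letters GGGCGG (a GC box) begin at -127, TGACGT (a CRE, the cyclic AMP response element) at -64 and TATAA at -33. HEXIM1 has ATTGG, the reverse complement of CCAAT, at -149, GC boxes at -124 and -51, and TATAA at -29. Its matches to the NRF1 letters, 1 on each strand, begin at -62 and -61 and overlap. ELL has GC boxes at -61 and -53 and no TATAA in the window searched.

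The core promoters below, 41 bases from -40 to 0, belong to members with TATAA ahead of the start. They were chosen to show how similar its place is in genes of unlike function. They are FOSB at chr19:45467956-45467996 (plus strand), CCN2 at chr6:131951372-131951412 (minus strand), EREG at chr4:74365105-74365145 (plus strand), PPP1R15A at chr19:48872381-48872421 (plus strand), IER5 at chr1:181088660-181088700 (plus strand), CTNNB1 at chr3:41199465-41199505 (plus strand), RPS9 at chr19:54200818-54200858 (plus strand) and RPL24 at chr3:101686718-101686758 (minus strand). Capitals mark TATAA and the start base.
FOSB: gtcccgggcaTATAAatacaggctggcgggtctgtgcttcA
CCN2: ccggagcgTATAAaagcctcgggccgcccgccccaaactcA
EREG: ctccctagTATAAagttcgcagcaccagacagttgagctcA
PPP1R15A: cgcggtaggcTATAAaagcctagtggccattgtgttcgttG
IER5: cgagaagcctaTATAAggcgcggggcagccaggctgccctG
CTNNB1: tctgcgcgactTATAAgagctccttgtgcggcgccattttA
RPS9: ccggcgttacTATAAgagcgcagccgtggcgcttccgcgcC
RPL24: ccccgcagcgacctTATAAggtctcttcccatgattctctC

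The next 8 core promoters belong to members without TATAA in the same window, and show that the same pause distance occurs with and without these exact letters. Close variants were not counted: RPL3 holds tatata, KRT20 and CD44 hold ataaaa, and FOSL2 holds ataaag. They are FOSL2 at chr2:28392818-28392858 (plus strand), ELOA at chr1:23743431-23743471 (plus strand), KRT20 at chr17:40885242-40885282 (minus strand), CD44 at chr11:35139131-35139171 (plus strand), RPL3 at chr22:39319623-39319663 (minus strand), RPS13 at chr11:17077667-17077707 (minus strand), EIF5 at chr14:103334197-103334237 (plus strand) and EIF3M at chr11:32583791-32583831 (plus strand). Only the start base is in capitals. CD44, RPL3, RPS13 and EIF3M start at C, as do RPS9 and RPL24 above.
FOSL2: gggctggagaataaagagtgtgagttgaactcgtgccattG
ELOA: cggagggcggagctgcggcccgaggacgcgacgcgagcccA
KRT20: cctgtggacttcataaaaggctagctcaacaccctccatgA
CD44: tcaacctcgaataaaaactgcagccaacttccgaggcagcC
RPL3: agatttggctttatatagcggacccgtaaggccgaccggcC
RPS13: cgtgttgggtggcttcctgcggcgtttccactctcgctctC
EIF5: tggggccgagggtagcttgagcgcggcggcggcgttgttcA
EIF3M: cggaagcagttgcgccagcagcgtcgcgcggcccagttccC

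The pause sites are shown as 17 bases, from 14 before the listed site to 2 after it. Capitals mark the listed base and the one after it. The first 10 have C after the site and the last 3 do not. The windows are FOS at chr14:75278857-75278873 (plus), FOSB at chr19:45468016-45468032 (plus), CCN2 at chr6:131951329-131951345 (minus), HEXIM1 at chr17:45148506-45148522 (plus), ELL at chr19:18522025-18522041 (minus), ELOA at chr1:23743502-23743518 (plus), CTNNB1 at chr3:41199525-41199541 (plus), CD44 at chr11:35139198-35139214 (plus), RPS9 at chr19:54200882-54200898 (plus), HSP90B1 at chr12:103930434-103930450 (plus), IER5 at chr1:181088729-181088745 (plus), RPL24 at chr3:101686680-101686696 (minus) and RPL3 at chr22:39319588-39319604 (minus).
FOS: ccaagactgagccgGCg
FOSB: cggccacggcagggACa
CCN2: agacagccagtgcgACt
HEXIM1: gttgggagggaaagTCg
ELL: ggaggataggagctACg
ELOA: cgatggcggcggagTCg
CTNNB1: gcagcgttggcccgGCc
CD44: gccaggttcggtccGCc
RPS9: tgcttaggtgaggtGCg
HSP90B1: gtgtgaggatccgaACc
IER5: ttgtcttgtttggaGAg
RPL24: ctttccgtggagctGTc
RPL3: tggcgtgatggtatGTg

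Within the range the distances had a median of 41 bp (quartiles 36 and 45), and 41 bp was also the most frequent single distance, with 141 genes. There were 383 genes at 30 to 34 bp, 509 at 35 to 39 bp, 633 at 40 to 44 bp and 602 at 45 to 49 bp. Over all entries the median was 52 bp (quartiles 38 and 84). Another 876 genes had their site under 30 bp, 2252 at 50 to 99 bp and 1226 at 100 bp or more. The limits cut a continuous distribution. Just inside them lay 67 genes at 30 bp, such as FZD6 and RPLP1, and 108 at 49 bp, such as GSK3B and HK2. Just outside lay 61 genes at 29 bp, such as KRT18 and DNAJB1, and 120 at 50 bp, such as AREG and SMAD3.

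**Figure D1:**
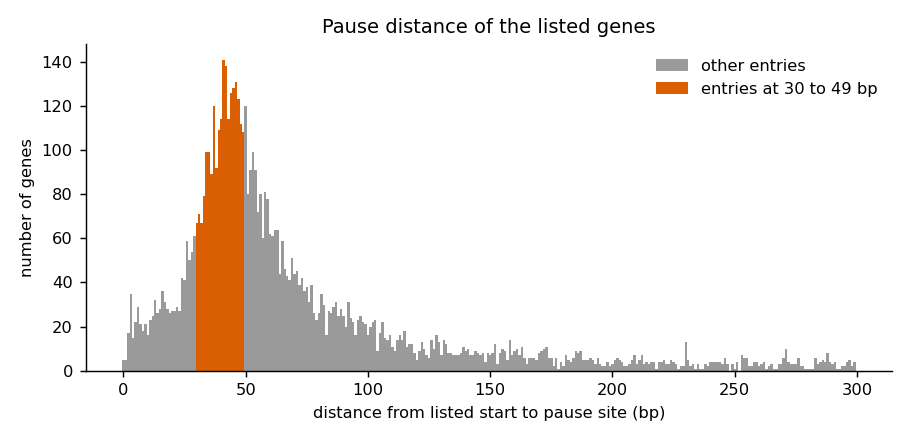
Number of genes (vertical axis) at each distance in bp from the listed start to the focused pause site (horizontal axis), with the 2127 genes at 30 to 49 bp in orange and all other entries in grey. The highest bar, 141 genes, stands at 41 bp, and the bars on both sides of the limits continue the same slope.

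The lists carry Ensembl identifiers, for example ENSG00000170345.10 for FOS, and no symbols. Names were given by position from RefSeq to 5822 entries. Of these, 1914 were at 30 to 49 bp, or 32.9%, which is the share against which each gene list is read. The other 213 members have no name here. They enter only the counts of distance, length, strand, chromosome and neighbouring starts that point the other way. Of the named members, 602 belong to at least 1 of 63 lists of families and functions and 1312 to none. Among the 60 lists with 5 or more entries, 36 had a larger share at 30 to 49 bp than all named entries and 24 a smaller one. The 95% Wilson interval, which covers counting error alone and treats genes as independent, lay wholly above 32.9% for 1 list and wholly below it for 5. No list was tested, and the 60 intervals are read together with no adjustment.

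**Figure D2:**
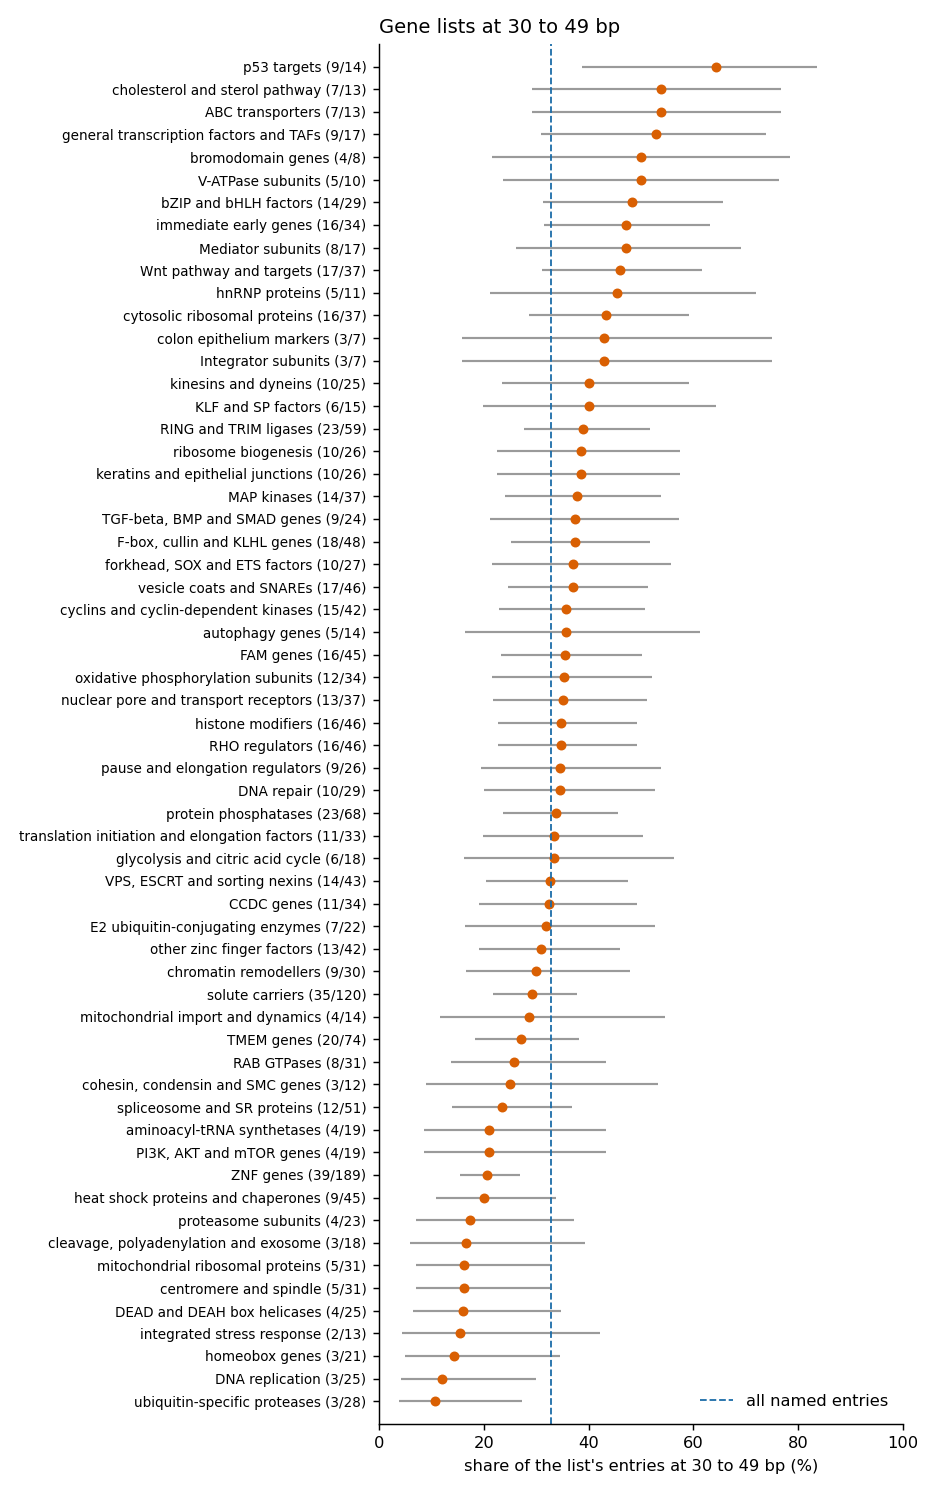
Share of each list's entries with a site at 30 to 49 bp (horizontal axis, percent), ordered by share, with the count of members and of entries in brackets and 95% Wilson intervals as bars. The dashed line is the 32.9% of all named entries; the shares run from 10.7% for ubiquitin-specific proteases to 64.3% for p53 targets, and most intervals cross the line.

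Genes induced by p53 had the highest share, 9 of 14 entries (64.3%, interval 38.8 to 83.7%). They included CDKN1A, the inhibitor of cyclin-dependent kinases, at 43 bp, and the cell death genes PMAIP1 (40 bp), BBC3 (45 bp) and FAS (46 bp). The stress genes SESN2 and AEN both had their site at 40 bp, TIGAR, a regulator of sugar metabolism, at 43 bp, and the secreted factor GDF15 at 46 bp. FDXR, which passes electrons to mitochondrial enzymes, had the shortest distance of the 9, at 38 bp. Of the list's other 5 entries, 3 lay at 50 to 99 bp and 2 at 100 bp or more. The interval no longer lay above the share of all named entries when distance was counted from the RefSeq start (4 of 14, against 17.9%), with starts within 10 bp of RefSeq's (4 of 6) or with names by reciprocal overlap (6 of 12).

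Immediate early genes had 16 of 34 entries at 30 to 49 bp (47.1%, interval 31.5 to 63.3%). The AP-1 subunits FOSB, FOSL2 and FOS had their sites at 34, 37 and 43 bp. Zinc finger factors of the early response lay between KLF4 at 31 bp, EGR1 at 32 bp, KLF2 at 38 bp and EGR3 at 42 bp. MYC, a broad regulator of growth, had its site at 44 bp and the stress factor ATF3 and the nuclear receptor NR4A1 at 46 bp. The matricellular proteins CCN1 and CCN2 lay at 34 and 41 bp, the EGF receptor ligand EREG at 46 bp, and the phosphatase regulator PPP1R15A and the phosphatase DUSP5 at 41 and 46 bp. The list's other entries fell on both sides, 6 under 30 bp, 5 at 50 to 99 bp and 7 at 100 bp or more. The strands gave opposite sides of the overall share, with 13 of 18 on the plus strand (72.2%) and 3 of 16 on the minus strand (18.75%, against 32.7% of all named entries there). The bZIP and bHLH factors had 14 of 29 (48.3%, 31.4 to 65.6%), and MYC and ATF3 count in both lists. The second list, built from name patterns, also takes in the coactivator CREBBP and ATF7IP2, which are not such factors.

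Wnt pathway genes and targets had 17 of 37 entries in the range (45.9%, interval 31.04 to 61.6%). The receptors FZD6 and FZD4 lay at 30 and 47 bp, the coreceptor LRP6 at 42 bp and LGR4, a receptor for R-spondins, at 31 bp. The central effector CTNNB1 (beta-catenin) had its site at 34 bp and its DNA-binding partner TCF7L2 at 32 bp. Of the kinases and scaffolds that act on beta-catenin, CSNK1A1 lay at 43 bp, AXIN2 and GSK3A at 46 bp and GSK3B at 49 bp. Targets ranged from EPHB2 at 35 bp over CD44 at 41 bp and SOX4 at 45 bp to SOX9 at 46 bp and EPHB3 at 48 bp. At 35 to 44 bp the Wnt list was just under the share of all named entries (6 of 37, 16.2% against 17.7%). For TGF-beta, BMP and SMAD genes the share was 9 of 24 (37.5%), close to that of all named entries. The count takes in TGFA, which is not such a gene. Among the 9 were the ligand TGFB2 at 34 bp, the receptor TGFBR1 at 48 bp and the shared effector SMAD4 at 41 bp.

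Genes that set up and release transcription are in 3 lists whose intervals all took in the overall share. General transcription factors and TBP-associated factors had 9 of 17 entries in the range (52.9%, interval 30.96 to 73.8%), including both TFIIA genes GTF2A2 and GTF2A1 at 41 and 43 bp, GTF2B at 47 bp and the TFIIE subunit GTF2E2 at 49 bp. Mediator, which links activators to polymerase, had 8 of 17 (47.1%, interval 26.2 to 69.04%), from the kinase CDK19 at 31 bp over CDK8 and MED4 at 42 bp to MED28 at 49 bp. Pause and elongation regulators had 9 of 26 (34.6%, interval 19.4 to 53.8%), near the share of all named entries. Those 9 include the PAF1 complex subunits CTR9 and LEO1 at 35 and 38 bp and IWS1, a partner of SPT6, at 33 bp. The elongation factors ELL, ELOA and ELL2 lay at 43, 45 and 46 bp, HEXIM1 at 45 bp and the kinase CDK13 at 48 bp. Of the other 17 regulators, 2 had a site under 30 bp, 7 at 50 to 99 bp and 8 at 100 bp or more. At 35 to 44 bp, and from the RefSeq start, the list had 3 of 26 (11.54%), under the share of all named entries. Histone modifiers (16 of 46, 34.8%) and chromatin remodellers (9 of 30, 30.0%) were also near it. The count of histone modifiers takes in KATNBL1, which is not one.

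Cytosolic ribosomal proteins had 16 of 37 entries at 30 to 49 bp (43.2%, interval 28.7 to 59.1%), a count that takes in RPS27L and RPL26L1, relatives of ribosomal protein genes, at 38 and 44 bp. The shortest were RPLP1 at 30 bp and RPS14 at 31 bp, followed by RPL3, RPS10 and RPS13 at 33 bp and RPL24 at 36 bp. RPL37A and RPS9 had theirs at 38 bp, RPS23 at 39 bp, RPS19 at 43 bp, RPLP0 at 46 bp and RPL11 at 47 bp. Mitochondrial ribosomal proteins had 5 of 31 (16.1%, interval 7.09 to 32.6%). Counted from the RefSeq start, however, their share was above that of all named entries (22.6% against 17.9%), and at 25 to 54 bp it was close to it (41.9% against 44.4%). Translation initiation and elongation factors had 11 of 33 (33.3%), near the share of all named entries. The name pattern for this list also brings in the methyltransferase EEF1AKMT1, and EEF2K and EIF4EBP2 (both at 49 bp), which are not such factors themselves.

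**Figure D3:**
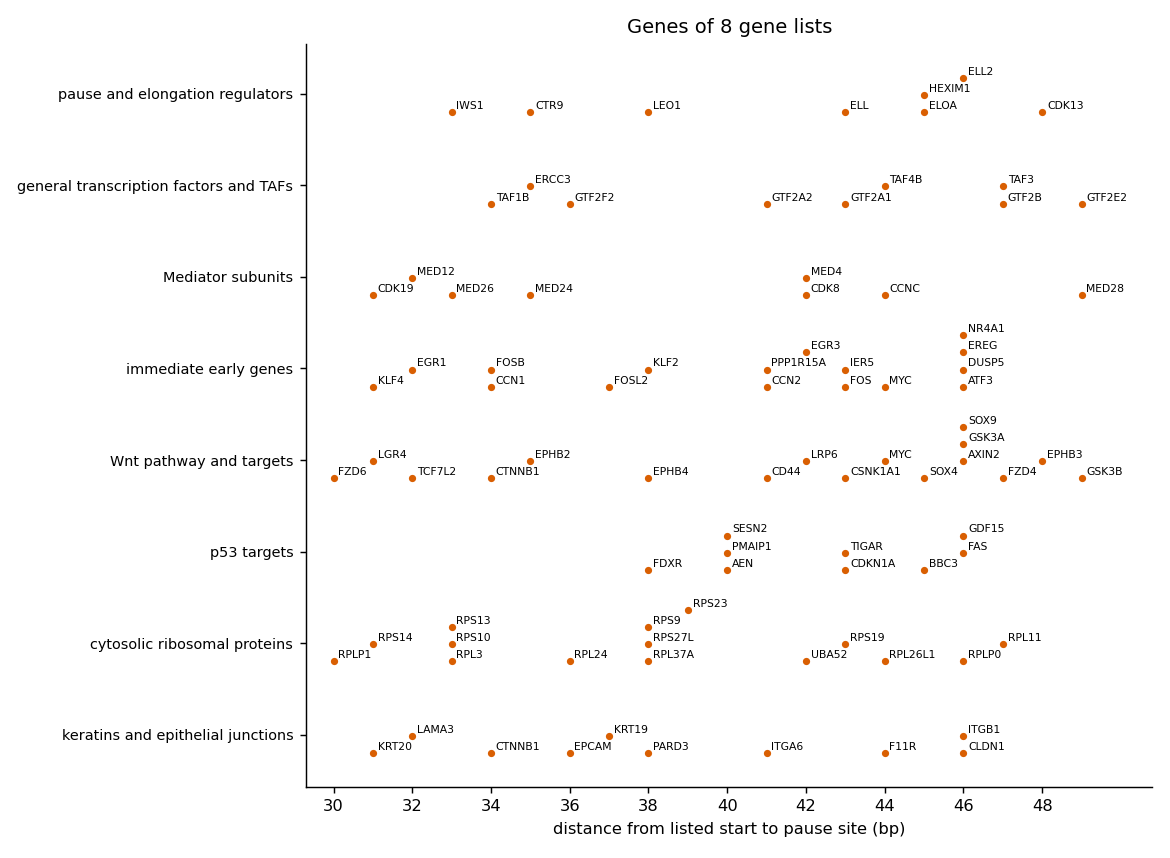
Distance in bp from the listed start to the pause site (horizontal axis) for genes at 30 to 49 bp in 8 of the gene lists, 1 point per gene plotted (not every member is plotted), moved up only to make room for names. The 9 p53 targets lie between 38 and 46 bp, while Wnt genes reach from FZD6 at 30 bp to GSK3B at 49 bp.

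The cholesterol pathway had 7 of 13 entries in the range (53.8%, interval 29.1 to 76.8%), among them the sterol synthesis enzymes SQLE at 34 bp, LSS at 39 bp and HMGCS1 at 48 bp. Most of the 7 lay near the limits, and at 35 to 44 bp the list had 1 of 13 (7.69%), below the 17.7% of all named entries. ABC transporters also had 7 of 13, including the drug efflux pump ABCB1 at 39 bp. Keratins and epithelial junction genes had 10 of 26 (38.5%, and 26.7% on the plus strand against 33.0% of all named entries there), with KRT20, a keratin of differentiated colon epithelium, at 31 bp, KRT19 at 37 bp, the adhesion protein EPCAM at 36 bp and the tight junction protein CLDN1 at 46 bp. Of the colon epithelium markers looked for, 7 genes had a named entry and the rest had none. None of the fibroblast and blood markers looked for had a named entry. Entries without a name could not be searched for markers. The lists record a pause site and no expression level. Oxidative phosphorylation subunits had 12 of 34 (35.3%) and solute carriers 35 of 120 (29.2%).

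The lists with the smallest shares were ubiquitin-specific proteases with 3 of 28 (10.7%, interval 3.71 to 27.2%) and DNA replication genes with 3 of 25 (interval 4.17 to 29.96%). The 3 replication genes in the range were GINS3 at 39 bp, ORC5 at 41 bp and PCNA, the sliding clamp, at 47 bp, and 13 of the others lay at 50 to 99 bp. Centromere and spindle genes had 5 of 31 (16.1%), with 20 at 50 to 99 bp. ZNF genes, most of which encode zinc finger repressors, gave the largest of these lists, 39 of 189 (20.6%, 15.5 to 27.0%), with a median distance of 57 bp over all 189. Heat shock proteins and chaperones had 9 of 45 (interval 10.9 to 33.8%), with DNAJA1 at 35 bp, BAG3 and HSP90AA1 at 37 bp and the endoplasmic reticulum chaperone HSP90B1 at 38 bp. At 35 to 44 bp the same 9 of 45 were above the 17.7% of all named entries. Homeobox genes had 3 of 21 (14.3%, interval 4.98 to 34.6%, which takes in 32.9%) and a median over all 21 of 79 bp. Among the families of 20 or more entries formed by the leading letters of the symbol, RPS genes had the highest share. It was 10 of 20 (interval 29.9 to 70.1%, which takes in 32.9%), and USP genes had the lowest. The 10 take in the kinases RPS6KA2 (32 bp) and RPS6KA1 (44 bp), which are not ribosomal proteins.

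TATAA on the sense strand, with all 5 letters between -40 and -15, was found in 62 of the 1329 members whose window could be read (4.67%, interval 3.66 to 5.94%). The share was 0.975% (5 of 513) for sites under 30 bp, 1.80% (26 of 1447) at 50 to 99 bp and 1.53% (11 of 720) at 100 bp or more. Over all promoters of the RefSeq table, including genes not listed, it was 3.94% (1383 of 35116). The interval of members did not overlap those of the other listed genes and took in the share of all promoters. Where the listed start is RefSeq's own, as in the promoter table, the share was 8.43% of members (36 of 427, interval 6.15 to 11.45%), above that of all promoters. There it was 3.54% (4 of 113) under 30 bp, 3.06% (13 of 425) at 50 to 99 bp and 2.45% (5 of 204) at 100 bp or more, and the intervals of the last 2 did not overlap that of members. Within the range it was most frequent at 30 to 34 bp (6.84%, 16 genes) and reached 3.21% (12 genes) at 45 to 49 bp. Read the other way, 62 of the 104 listed genes with TATAA were members (59.6%, 50.01 to 68.5%), against 1267 of 3905 without it (32.4%). Where the listed start lay within 10 bp of the RefSeq start, the same shares were 57.8% (48 of 83) and 36.6% (645 of 1760). In all 62 members the motif began between -33 and -26, as it did in 40 of the 42 other listed genes with TATAA. The median place was -30 in members and -31 in the others.

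**Figure D4:**
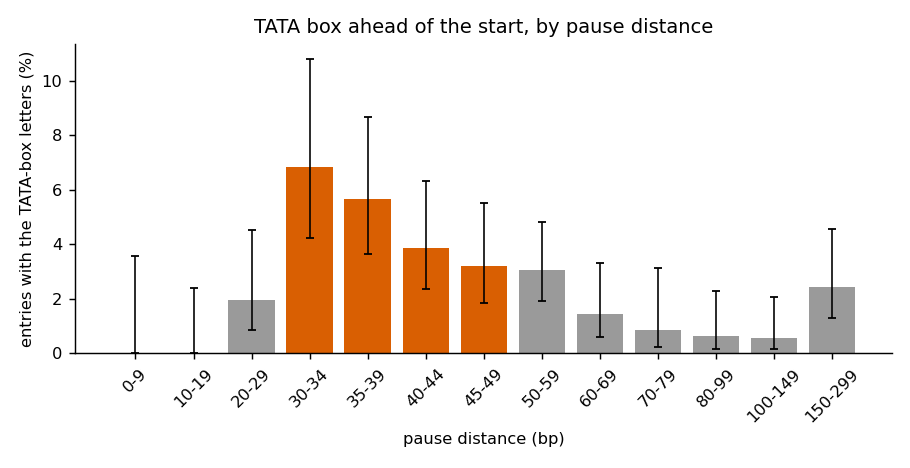
Percent of entries with TATAA between -40 and -15 (vertical axis) by distance of the pause site in bp (horizontal axis), with the 4 bands at 30 to 49 bp in orange, other bands in grey, and 95% Wilson intervals. The highest bar is 6.84% at 30 to 34 bp, and the orange bars fall to 3.21% at 45 to 49 bp, next to 3.06% at 50 to 59 bp.

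Immediate early genes were frequent among the members with TATAA. Of their 10 members with a readable window 8 had it, namely FOS, FOSB, KLF2, KLF4, CCN2, EREG, IER5 and PPP1R15A. Of the 10 immediate early genes outside the range with a readable window, 3 had it (AREG, BTG1 and DUSP1). Cytosolic ribosomal proteins had it in 3 of 13 members (RPS9, RPL24 and RPLP0) and in 1 of 12 others. The remaining carriers are of mixed function and include HEXIM1, GTF2B, TAF4B, CTNNB1, GDF15, TGFB2, HSP90AA1, HMGCS1, the asparagine synthetase ASNS and the glucose transporter SLC2A1. None of the 29 ZNF members with a readable window had it, which allows a share of up to 10.3%. Nor did any of the 111 readable ZNF entries outside the range, so its absence was not particular to the members.

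At the start itself members resembled the other entries, with CA at -1 and 0 in 54.3% (688 of 1267, interval 51.5 to 57.0%), against 55.4% under 30 bp, 50.04% at 50 to 99 bp and 49.3% at 100 bp or more. A pyrimidine at the start was rare, in 49 of 1267 members (3.87%) and in 4.39% of all other entries. Ribosomal protein genes differed from this by count, with a pyrimidine in 12 of 13 readable members and in 11 of 11 readable entries outside the range. The translation factors EIF2S3, EIF3M and EIF4B, 3 of the 7 readable members of their list, also started at a pyrimidine, as did 3 of its 15 readable entries outside the range. The letters CTTTT at -2 to 4 were found in only 0.400% of members.

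The other motifs were searched on both strands, the first 5 below from -150 to the start, or to -20 for the GC box and -30 for the CCAAT box. The GC box, GGGCGG, was found in 68.4% of members and 33.5% of all promoters of the table, CCAAT in 26.3% and 21.1%, CCGGAAG (ETS) in 15.1% and 6.87%, TGACGT (CRE) in 11.7% and 5.48%, and GCATGCG (NRF1) in 3.99% and 2.67%. Over all listed entries, in the same order, the shares were 66.8%, 26.9%, 15.2%, 10.3% and 4.91%, near those of members. For all 5 the interval of members overlapped that of entries at 50 to 99 bp. CACGTG, the E-box bound by bHLH factors, was found in 6.15% of members (4.95 to 7.62%) and in 10.8% of genes with sites under 30 bp (8.27 to 13.9%), 6.76% at 50 to 99 bp and 4.59% at 100 bp or more. AAGATGG, a YY1 site, between -30 and 30 was found in 6.80% of members (5.41 to 8.52%), in 6.86% of entries at 50 to 99 bp, in 3.45% under 30 bp and in 3.07% at 100 bp or more. A match is a run of letters, not a site shown to be bound. The median GC content from -100 to -1 was 72.5% for members and 72.0% for all entries.

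At the pause site, the base after the listed one was C in 753 of the 846 members that could be read (89.0%, interval 86.7 to 90.9%). C made up 27.9% of the first 30 bases of members. The base was A in 7.33% and T in 3.43% of sites, and G in 2 of the 846. On the plus strand the share with C was 88.7% and on the minus strand 89.3%. For sites under 30 bp it was 82.4% (319 of 387, interval 78.3 to 85.9%), and for the few readable sites at 50 to 99 bp 82.5% (118 of 143, 75.5 to 87.9%). The listed base was G in 51.2% (460 of 898) and the second base after the site was G in 55.2%. The triplet GCG was found at 201 of 803 sites, followed by GCT with 75 and CCG with 73. Members without C after the site include IER5 and RPS10 with A, and RPL3, RPL24 and RPL37A with T. Ribosomal protein members had C in 8 of 12. The windows end 50 bases after the RefSeq start, so late sites and genes whose listed start lies downstream of RefSeq's are left out more often.

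**Figure D5:**
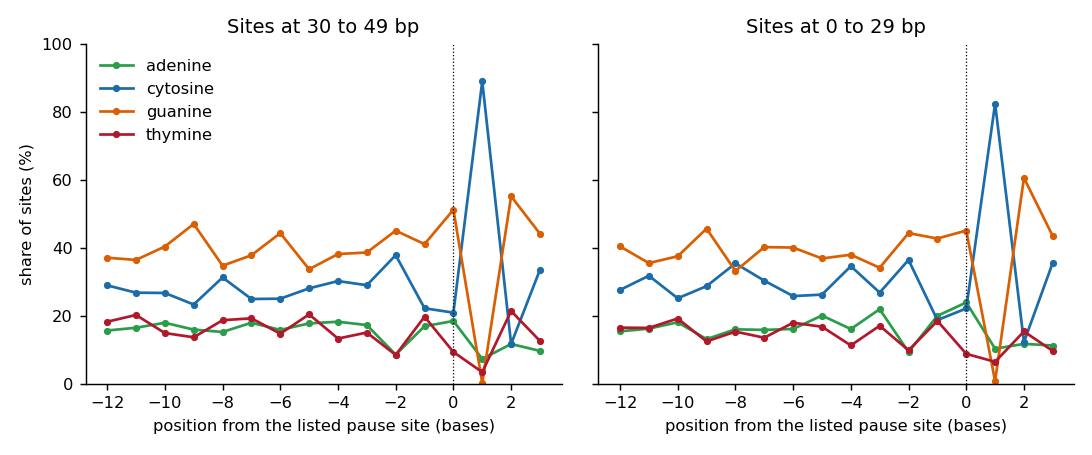
Percent of sites with each base (vertical axis) by position in bases from the listed pause site (horizontal axis, dotted line at 0), for sites at 30 to 49 bp on the left and under 30 bp on the right. Cytosine peaks just after the site, at 89.0% on the left and 82.4% on the right, where guanine is nearly absent.

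Most measures that the distance does not fix differed little. The median gene length was 36855 bp for members (quartiles 16621 and 82186) and 35481 bp for all entries, and 52.3% of members lay on the plus strand. A RefSeq gene pointing the other way started within 1000 bp in 17.4% of members (15.8 to 19.1%), in 13.7% of genes with sites under 30 bp and in 16.5% of those at 50 to 99 bp. By chromosome the share of entries at 30 to 49 bp ran from 28.3% on chromosome 9 to 45.7% (32 of 70) on chromosome 21, leaving out Y. The interval of chromosome 21 (34.6 to 57.3%) lay above the 32.8% of all entries. Those of the other chromosomes took it in, and no adjustment was made for their number.

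The listed start was the same base as the outermost RefSeq start in 29.2% of named members and within 10 bp in 45.8%, against 27.7% within 10 bp for sites under 30 bp, 41.7% for those at 50 to 99 bp and 35.1% for those at 100 bp or more. For 49.5% of members RefSeq's start was upstream of the listed one by over 10 bp. Both this offset and the distance count from the listed start, so they are not independent. Counted from the RefSeq start, 826 of the 1914 named members (43.2%) kept a distance of 30 to 49 bp, 994 lay farther and 94 nearer, 66 of them upstream of that start. Among the 877 members whose 2 starts lie within 10 bp of each other, 797 kept it.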

How the data were processed

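DLD-1 cells were profiled by ChIP-seq with mouse cells as spike-in. The submitters' processing notes name hg38 and mm10, cutadapt 1.14, Bowtie2 2.2.6 and deepTools 3.1.1. The authors deposited 2 coordinate lists in BED format, one of genes and one of pause sites. Their columns hold other kinds of values than signal (positions counted from 0, converted here to 1-based), and both were joined by identifier. The distance was the pause position minus the gene start along the strand. Names came from RefSeq (GRCh38.p14) by position, without use of the RefSeq gene's strand. Exactly 1 gene had to have its boundary within 50 bp of the entry's downstream end and cover 50% of the entry or more. After moving all entries by 1000000 bp, 6 and 4 were named. Promoter windows (250 bases before to 50 after the RefSeq start) matched 4809 named entries, of which 1574 were members. All 4809 had a window on the entry's own strand, and strand was not checked for the other named entries. A base was read only where such a window of the same gene held it. Any member of a list may be named, and a few genes counted in the lists are not reported here by name. In lists of over 40 members, genes were chosen by distance. Sequences came first from members whose listed start is RefSeq's. The members and the gene lists were chosen with earlier results of these data known. Intervals are Wilson intervals at 95% and cover counting error alone. No test was run, since no library has a value. Counting was checked on simulated entries (Python 3.11.15, pandas 2.3.3, SciPy 1.17.1). Other limits, starts, strands and naming rules were tried.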

Additional observations from a re-analysis of the deposited data

How the results depend on the processing

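The share of entries counted as members followed the limits by construction: 17.6% at 35 to 44 bp (1142 genes) and 44.3% at 25 to 54 bp (2873). Counted from the outermost RefSeq start it was 17.9% (1042 of 5822), and among entries whose listed start lies within 10 bp of RefSeq's it was 37.7% (877 of 2325). On the plus and minus strands it was 33.1% and 32.5%. The number of lists above the overall share, 36 of 60, ranged from 26 to 34 over 7 alternatives, and which lists these were changed more. Against the overall share of each setting, 40 of 60 lists kept their side from the RefSeq start and 52 of 60 with names by reciprocal overlap of 80%. Kept under all alternatives that left 5 or more entries was the side of 14 lists, which is 7 alternatives except for colon epithelium markers (4), p53 targets (6) and ABC transporters (6). Those above were p53 targets, ABC transporters, Mediator subunits, bZIP and bHLH factors, colon epithelium markers, cytosolic ribosomal proteins, and general transcription factors and TAFs. Those below were DEAD and DEAH box helicases, DNA replication, ZNF, centromere and spindle, cohesin and SMC, homeobox genes and ubiquitin-specific proteases. At 30 to 49 bp the helicases had 4 of 25 (interval 6.40 to 34.7%) and cohesin and SMC genes 3 of 12 (8.89 to 53.2%). These 2 intervals, and that of the colon epithelium markers, took in 32.9%. Immediate early and Wnt genes are not among the 14. An interval wholly on its side of the overall share was kept under 6 of 7 alternatives for ZNF genes, 4 of 7 for DNA replication, 3 of 7 for ubiquitin-specific proteases, 3 of 6 for p53 targets, 1 of 7 for mitochondrial ribosomal proteins and none for centromere and spindle genes. TATAA was found in 8.43% of members (36 of 427) where the listed start is RefSeq's own, against 4.67% of all readable members; the cause was not tested. C after the site was found in 89.4% of sites at 35 to 44 bp and in 89.1% where the listed start is RefSeq's own. The median gene length was 34725 bp at 35 to 44 bp and 36980 bp at 25 to 54 bp. No paired analysis was possible because the lists hold no value of any library and no result comes from a test. Small lists limit precision, and the depth behind each site is unknown. Counting from the RefSeq start put 33 of 60 list shares outside their interval, and the limits 35 to 44 bp put 36 of 60 outside. The share of all named entries itself fell in these settings, from 32.9% to 17.9% and 17.7%.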
